A study of Homo sapiens with 6 samples.

Results

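Neuron-associated miRs, that is, microRNAs known to be enriched in neural tissue, were followed in HEK293T cells, a human embryonic kidney line. The 10 miRs were chosen by name: hsa-miR-9-5p, hsa-miR-9-3p, hsa-miR-124-3p, hsa-miR-128-3p, hsa-miR-129-5p, hsa-miR-132-3p, hsa-miR-212-3p, hsa-miR-138-5p, hsa-miR-153-3p and hsa-miR-218-5p. Each name matched 1 row of a count table of 2588 mature miRs. The 6 small RNA libraries were 3 RPL24 KD libraries, from cells given siPOOLs against the ribosomal protein RPL24, and 3 NC libraries, from cells given non-targeting siPOOLs. Both groups received 50 nM of siPOOLs and were harvested 72 h later. The protocols describe a miR-608 plasmid for these cells, added at 48 h, 24 h before harvest, but the sources do not make clear that the sequenced cells were given it. The paper describes the sequenced knock-down as a separate experiment and reports that miR-608 was not found in its reads. The titles of the NC samples also mention RPL24 KD, and their treatment tag, which names the non-targeting control, was followed. Labels do not say whether the libraries of a group came from separate cultures, so p-values measure only the spread between these libraries, which may be technical.

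A mature miR of 21 to 23 bases is cut from one arm, 5p or 3p, of a hairpin and guides the silencing complex to mRNAs that pair with its seed, bases 2 to 8. MiR-9 and miR-124 act in neurogenesis and in the repression of non-neuronal genes, miR-128 restrains neuronal excitability, and miR-132 and miR-212 come from 1 activity-induced transcript. MiR-138 limits dendritic spine growth, and miR-218 is a motor neuron miR. All of this is known from neural tissue, whereas the cells here are not neurons.

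The sequences show which members can be told apart by their reads and which share a seed. RefSeq (GRCh38.p14) gave a mature sequence for 9 of the 10 members, printed here 5′ to 3′ with the seed in capitals.
hsa-miR-9-5p: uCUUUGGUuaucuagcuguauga
hsa-miR-9-3p: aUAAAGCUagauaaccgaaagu
hsa-miR-128-3p: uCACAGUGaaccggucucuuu
hsa-miR-129-5p: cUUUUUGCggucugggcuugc
hsa-miR-132-3p: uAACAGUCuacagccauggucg
hsa-miR-212-3p: uAACAGUCuccagucacggcc
hsa-miR-138-5p: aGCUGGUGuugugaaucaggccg
hsa-miR-153-3p: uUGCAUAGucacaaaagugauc
hsa-miR-218-5p: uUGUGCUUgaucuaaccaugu
Only miR-132-3p and miR-212-3p share a seed among these 9. They have the same base at 17 of 21 positions, their first 9 bases are identical, and they differ by 5 single-base edits. Each of the other 7 differs from every other mature sequence in the table by at least 6 edits. The comparison covered the 2281 table names with a RefSeq sequence. Outside the members, the seed of miR-128-3p was shared by miR-216a-3p, with 3 counts in all, and miR-3681-3p, with 0. The same 7 bases, CACAGUG, lie at another offset within the first 10 bases of miR-27b-3p, which averaged 8971 CPM.

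Several members come from more than 1 hairpin, so their counts cannot be assigned to a locus. RefSeq places miR-9 at 3 hairpins and miR-128-3p, miR-138-5p and miR-218-5p at 2 each. The MIR128-1 hairpin lies at chr2:135665397-135665478 on the plus strand, in an intron of R3HDM1, and MIR128-2 at chr3:35744476-35744559 on the plus strand, in an intron of ARPP21. MIR218-1 (chr4:20528275-20528384, plus) and MIR218-2 (chr5:168768146-168768255, minus) are intronic in SLIT2 and SLIT3, which encode axon guidance ligands. MIR9-1 (chr1:156420341-156420429, minus) is intronic in C1orf61. MIR9-2 (chr5:88666853-88666939, minus) is intronic in 5 and exonic in 4 transcripts of LINC00461, and MIR9-3 (chr15:89368017-89368106, plus) is intronic in MIR9-3HG. MIR132 (chr17:2049908-2050008, minus) and MIR212 (chr17:2050271-2050380, minus) are 262 bases apart and lie in no host gene of the GENCODE 29 annotation.

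The libraries held from 398721 to 611745 counts. Levels are given as normalized counts (CPM, scaled to the normalized library total), with no division by length because 1 read covers a whole mature miR. The floor used here, 3 counts, was worth 4.98 to 7.50 CPM depending on the library, and floors and counting intervals cover counting error only. Library pairs differed by a chi-square per degree of freedom of 2.18 to 2.50 within RPL24 KD and of 9.72 to 17.4 within NC, so the NC libraries varied more. The table holds no mRNA, so neither the depletion of RPL24 nor markers of the cell line were checked. In bulk RNA, fewer cells with a miR and fewer copies per cell cannot be told apart.

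The members differed widely in level. Of the 1205 miRs with at least 1 read, miR-128-3p ranked 13 by mean level, miR-218-5p 18 and miR-9-5p 35. MiR-129-5p ranked 145, miR-9-3p 162 and miR-132-3p 229. MiR-138-5p, miR-124-3p and miR-212-3p ranked 473, 514 and 521, and miR-153-3p had no read. The 10 miRs together took 4.12% ± 0.05 (SD, n = 3) of the counts in RPL24 KD and 3.97% ± 0.18 (SD, n = 3) in NC. The 3 most abundant members gave between 98.4% and 98.6% of these counts in each library.

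In descending order, the 6-library means were 20436 CPM for miR-128-3p, 14282 for miR-218-5p, 5145 for miR-9-5p, 281 for miR-129-5p, 220 for miR-9-3p and 88.1 for miR-132-3p. Means of 7.65, 5.78 and 5.63 CPM followed for miR-138-5p, miR-124-3p and miR-212-3p. The ranges of miR-129-5p and miR-9-3p over the 6 libraries overlapped, as did those of the low members among themselves, so their order is not separated from the spread. The first 3 members did not overlap their neighbours. MiR-9-5p was 18.3-fold above miR-129-5p, the widest gap between neighbours with a mean above 0.

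RPL24 KD was compared with NC to see whether levels of these miRs differ once RPL24 is depleted. EdgeR's quasi-likelihood test was used, with p-values adjusted by the Benjamini-Hochberg method over the 360 miRs that passed its filter on low counts. Of those 360, 21 (5.83%) had an adjusted p under 0.05, 11 higher and 10 lower in RPL24 KD. Of the 10 members, 6 passed the filter and 0 were called, while 2 of the 6 had an unadjusted p under 0.05, against 78 of all 360 miRs (21.7%). DESeq2 called 20 of the 360 (5.56%) and put 56 (15.6%) at an unadjusted p under 0.05, with 0 of the 6 members in either count. The log2 fold changes of the 6 lay between 0.01 and 0.51, all above 0, with a median of 0.08, beside a median of -0.01 over all tested miRs, of which 171 lay above 0. Both arms of miR-9 are among the 6. With no filter, the low members miR-124-3p, miR-212-3p and miR-138-5p lay below 0, at -3.54, -0.72 and -0.50. Groups did not overlap in 2 of the 6, and in 99 of the 360 (27.5%).

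Hsa-miR-128-3p had 21080, 21962 and 21303 CPM in RPL24 KD libraries 1, 2 and unnumbered, and 20628, 20277 and 17365 CPM in the NC libraries in the same order. One library per group carries a number in the table that no label has, and it is referred to as unnumbered. All RPL24 KD values lay above all NC values, and the unnumbered NC library was the lowest. Group means were 21448 ± 459 and 19424 ± 1791 CPM (SD, n = 3). The log2 fold change was 0.14 (SE 0.06, 95% interval 0.00 to 0.28, adjusted p = 0.208, edgeR), which did not pass the test. Without the unnumbered NC library it was 0.07 (adjusted p = 0.423, edgeR).

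The other arm of miR-128 differs between the hairpins, which lets its reads be assigned. With the seed in capitals, the 5p arms read as follows.
hsa-miR-128-1-5p: cGGGGCCGuagcacugucugaga
hsa-miR-128-2-5p: gGGGGCCGauacacuguacgaga
They share the 7 seed bases and differ by 5 edits. MiR-128-1-5p had 14, 26 and 11 counts in RPL24 KD libraries 1, 2 and unnumbered and 16, 9 and 20 in NC. MiR-128-2-5p had 0 counts in all 6. The 3p arm made up 99.85% ± 0.04 of miR-128-3p plus miR-128-1-5p in RPL24 KD and 99.85% ± 0.06 in NC (SD, n = 3). The log2 fold change of miR-128-1-5p was 0.13 (SE 0.32, adjusted p = 0.856, edgeR), and its groups overlapped.

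Hsa-miR-218-5p had 14381, 14552 and 14919 CPM in RPL24 KD and 13493, 14551 and 13799 in NC, again in the order 1, 2 and unnumbered. The groups overlapped, since RPL24 KD 1 lay below NC 2. Its log2 fold change was 0.07 (SE 0.05, 95% interval -0.04 to 0.18, adjusted p = 0.480, edgeR). It was 0.13 without NC 2 and 0.02 with total counts in place of TMM, and was called in neither. Of its partner arms, miR-218-1-3p had 1 read in 1 NC library and miR-218-2-3p had none, beside 43493 counts of the 5p arm over the 6 libraries.

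Both arms of miR-9 were counted. Hsa-miR-9-5p had 5296, 5183 and 5129 CPM in RPL24 KD and 4958, 5435 and 4867 in NC, with NC 2 the highest of the 6. MiR-9-3p, from the same hairpins, had 239, 232 and 207 CPM in RPL24 KD and 204, 224 and 212 in NC. Groups overlapped for both arms. The log2 fold change was 0.03 (SE 0.06, 95% interval -0.11 to 0.17, adjusted p = 0.810, edgeR) for the 5p arm. It was 0.10 (SE 0.11, 95% interval -0.13 to 0.33, adjusted p = 0.658, edgeR) for the 3p arm. Without NC 2 these were 0.11 and 0.16, and leaving out single libraries took them as low as 0.0027 for the 5p arm (without the unnumbered NC library) and 0.06 for the 3p arm (without RPL24 KD 1), with no call in any. The 5p arm took between 95.7% and 96.1% of miR-9 counts in each library, with means of 95.8% ± 0.24 in RPL24 KD and 96.0% ± 0.12 in NC (SD, n = 3).

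Hsa-miR-129-5p had 301, 274 and 267 CPM in RPL24 KD and 283, 352 and 212 in NC, so that the NC libraries held both the highest and the lowest value. Its log2 fold change of 0.01 (SE 0.15, 95% interval -0.30 to 0.33, adjusted p = 0.981, edgeR) was below 0 with total counts in place of TMM and without either RPL24 KD 1 or the unnumbered NC library. RefSeq holds 2 MIR129 hairpins, MIR129-1 and MIR129-2, but places the mature sequence of miR-129-5p at only 1 of them. Of their 3p arms, miR-129-2-3p had from 1 to 4 counts per library and miR-129-1-3p had 1 count in all.

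Hsa-miR-132-3p was the member with the largest log2 fold change among the 6 tested. It had 51, 57 and 51 counts, or 93.0, 94.6 and 127 CPM, in RPL24 KD libraries 1, 2 and unnumbered. In NC it had 48, 24 and 37 counts, or 83.7, 59.8 and 70.0 CPM. All RPL24 KD values lay above all NC values, and the unnumbered RPL24 KD library was the highest. The log2 fold change was 0.51 (SE 0.20, 95% interval 0.08 to 0.94, adjusted p = 0.153, edgeR), which did not pass the test. It was 0.37 without the unnumbered RPL24 KD library (adjusted p = 0.407, edgeR).

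Of the other arms in the cluster, miR-132-5p and miR-212-5p were also higher in RPL24 KD, while miR-212-3p was not. MiR-132-5p had 73.0, 92.9 and 80.0 CPM in RPL24 KD and 55.8, 67.3 and 49.2 in NC, with no overlap. Its log2 fold change was 0.54 (SE 0.21, adjusted p = 0.158, edgeR). MiR-212-5p had 51.1, 48.1 and 55.0 CPM in RPL24 KD and 34.9, 42.4 and 45.4 in NC, also with no overlap, and a log2 fold change of 0.33 (SE 0.25, adjusted p = 0.469, edgeR). Neither passed the test, and groups did not overlap in 99 of the 360 tested miRs (27.5%). Being cut from 1 transcript, the arms are not independent of each other. MiR-212-3p had 2, 0 and 4 counts in RPL24 KD and 4, 3 and 3 in NC, at or near the floor, and did not pass the filter. With no filter its log2 fold change was -0.72 (SE 0.80, adjusted p = 0.715, edgeR). Summed after these values were seen, and so given with no test, the 4 arms came to 243 ± 26.6 CPM in RPL24 KD and 176 ± 5.68 in NC (SD, n = 3).

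The 2 hairpins of the cluster differed in which arm was counted. The 3p arm made up 56.0% ± 5.50 of miR-132 counts in RPL24 KD and 55.3% ± 7.13 in NC (SD, n = 3). For miR-212 the 5p arm made up 92.6% ± 7.72 in RPL24 KD and 85.7% ± 2.85 in NC (SD, n = 3), with 140 counts against 16 over all libraries. The member named for miR-212, its 3p arm, was thus the less abundant arm here. The 2 members with a common seed were counted unequally, 268 reads of miR-132-3p against 16 of miR-212-3p. The treatment of reads that match more than 1 miR is not given in the sources used here.

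The other 3 members lay near the floor or at 0. Hsa-miR-138-5p had 5, 3 and 2 counts in RPL24 KD and 6, 2 and 6 in NC. MiR-153-3p had 0 counts in each of the 6 libraries. For a single library this allows up to 3 counts, or 7.50 CPM in the shallowest by normalized total, and the 6 libraries together allow less. MiR-138-5p did not pass the filter, and with no filter its log2 fold change was -0.50 (SE 0.64, adjusted p = 0.745, edgeR). MiR-153-3p, at 0 in both groups, has no fold change. Their partner arms miR-138-2-3p and miR-153-5p had 0 counts, and miR-138-1-3p had 4 in all.

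Hsa-miR-124-3p, the miR most closely tied to neuronal identity, had 0, 1 and 0 counts in RPL24 KD and 1, 8 and 6 in NC. NC 2 and the unnumbered NC library held 14 of its 16 counts, and the other 4 libraries had at most 1 read. The count ratio of RPL24 KD to NC, relative to total counts, was 0.0624, with an exact 95% counting interval from 0.00148 to 0.406. That interval leaves out the spread between libraries. MiR-124-3p did not pass the filter. In a fit of all 1205 detected miRs with no filter, where 30 (2.49%) were called, it was the one member called, at a log2 fold change of -3.54 (SE 1.03, adjusted p = 0.0299, edgeR). That call was lost without NC 2 (adjusted p = 0.728, edgeR), without the unnumbered NC library (0.130), without RPL24 KD 1 (0.182) and without the unnumbered RPL24 KD library (0.118). DESeq2 on the same miRs gave an unadjusted p of 0.0140 and no adjusted p. Some other low miRs had most of their counts in NC 2 or in the unnumbered NC library, and some did not. NC 2 held 6 of the 7 counts of miR-134-5p, and the unnumbered NC library held 6 of the 9 of miR-219a-5p and both reads of miR-137. By contrast, in NC libraries 1, 2 and unnumbered, miR-488-3p had 4, 1 and 1 counts and miR-338-3p had 1, 1 and 0. The more abundant hsa-miR-1246 had 6348 CPM in NC 2 and from 195 to 651 CPM in the other 5 libraries. The part of these library differences in the miR-124-3p counts was not tested.

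A wider list of 18 other miRs known as enriched in neural or neuroendocrine tissue was read for comparison. Of these, 9 did not pass the filter, with 2 to 14 counts each over all libraries. The other 9 passed, 1 was called higher and 1 lower, and 2 of the 9 log2 fold changes lay above 0, with a median of -0.14. Of all 360 tested miRs, 21 (5.83%) were called, 11 higher and 10 lower, and 171 lay above 0, with a median of -0.01. MiR-7-5p, abundant in neuroendocrine cells, rose from 66053 ± 3012 CPM in NC to 82087 ± 2220 in RPL24 KD (SD, n = 3), a log2 fold change of 0.31 (SE 0.05, adjusted p = 0.00251, edgeR). It was above every member in level. MiR-328-3p had 213, 247 and 255 CPM in RPL24 KD and 305, 332 and 318 in NC, with no overlap, and fell by 0.42 on the log2 scale (SE 0.10, adjusted p = 0.0262, edgeR). The call of miR-328-3p was lost with the newer dispersion estimate of edgeR (adjusted p = 0.0517), by DESeq2 (0.0955), with no filter (0.0692) and without RPL24 KD 1 (0.126), RPL24 KD 2 (0.0839) or NC 2 (0.124). Log2 fold changes of miR-95-3p, miR-125b-5p, miR-149-5p, miR-330-3p and miR-598-3p, the others with a mean of at least 100 counts, lay between -0.20 and -0.01, and none was called. Of the 12 other arms of the members' hairpins, 3 passed the filter and 4 had no read. Of the 3, 0 were called and 1 had an unadjusted p under 0.05, beside 78 of all 360 (21.7%).

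**Figure D1:**
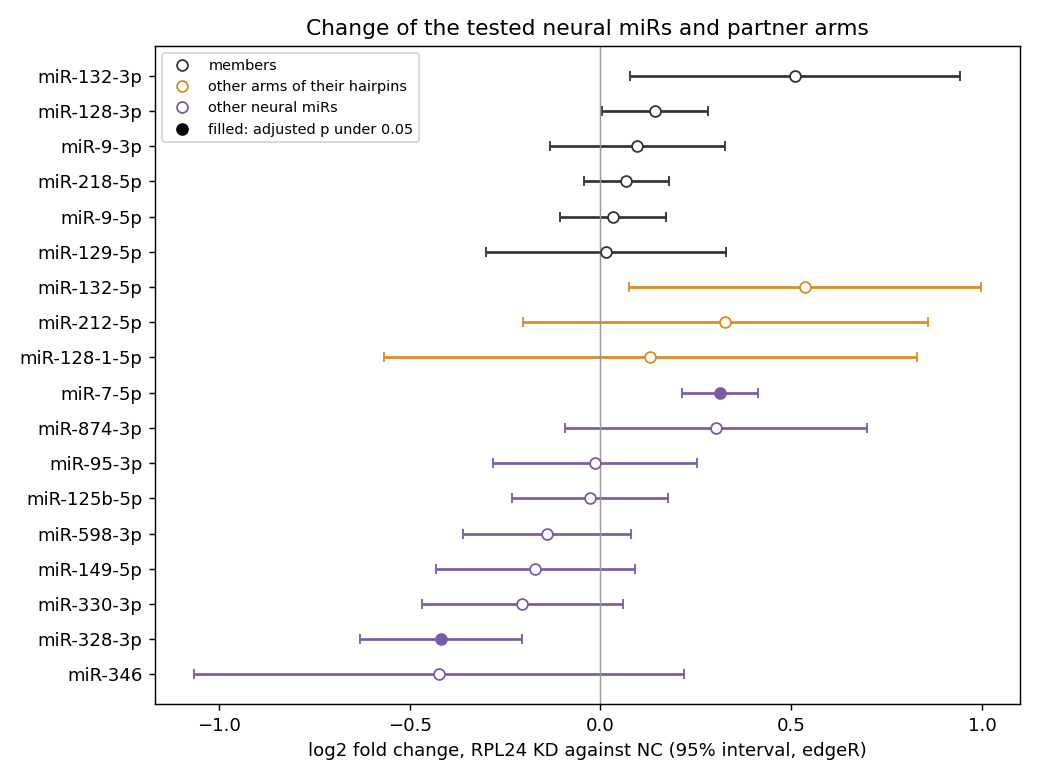
Log2 fold change between RPL24 KD and NC (x, positive where RPL24 KD is higher) with 95% intervals from edgeR for each tested member (black), other arm of a member hairpin (orange) and other neural miR (purple), filled where the adjusted p was under 0.05. MiR-7-5p and miR-328-3p, neither a member, are the filled points, and the 6 members lie between 0.01 and 0.51 with open points.

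Over the 6 libraries, the tested miRs whose log2 CPM followed miR-128-3p most closely were let-7c-5p (Pearson r = 0.97), miR-615-3p (r = 0.97) and miR-548am-3p (r = 0.93). In all, 8 of the tested miRs had an r above 0.9. These points share the same 6 libraries and scaling factors, and the values are a description.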

How the data were processed

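Small RNA libraries (NEBNext kit, NextSeq) of 3 RPL24 KD and 3 NC samples were used. The authors checked reads with FastQC 0.11.9, as the submitters' processing notes give it, trimmed them with Flexbar, aligned them to miRBase with miRExpress and deposited raw counts per mature miR without normalization. The authors compared groups with DESeq2. Depth was 398721 to 611745 counts per library.

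Libraries 1 and 2 of each group were matched to labels by number, the third by group. All 6 columns were used. Counts were tested with edgeR 4.0.16 in R 4.3.3 (TMM, filterByExpr with a minimum count of 10, estimateDisp, glmQLFit and glmQLFTest at defaults, adjusted p under 0.05). A fit with the newer dispersion estimate was also made. It called 18 miRs instead of 21, and the default was kept after both results were seen. SEs and intervals follow from the F statistic, so an interval can differ slightly from its p. Alternatives were DESeq2 1.42.0, RLE, total counts, no filter, a replicate block and leaving out each library. Fits were tested on simulated data with the same spread in both groups, which leaves out the wider spread of the NC libraries.

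The members and lists were chosen with earlier results of these data known. Named were all members and, of their other arms and 18 other neural miRs, those called or with a mean of at least 100 counts. The other arms described beside a member, miR-1246 and the miRs sharing a seed were named after their values were seen. So were those picked from the 9 miRs of the wider list that did not pass the filter. Mature sequences and hairpin positions came from RefSeq (GRCh38.p14), whose ends may differ from those of the miRBase release used for counting. Host genes came from GENCODE 29 on GRCh38. Likeness used log2(CPM + 0.5).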

Additional observations from a re-analysis of the deposited data

How the results depend on the processing

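The count of miRs called, 21, was 32 with total counts in place of TMM (11 higher and 21 lower, against 11 and 10), 51 with the replicate block on the 4 numbered libraries and 28 for the same libraries without the block, a fit chosen after seeing the data. It ranged from 5 to 32 when 1 library was left out: 5 without RPL24 KD 2, 6 without RPL24 KD 1, 12 without the unnumbered RPL24 KD library and 32 without the unnumbered NC library. RLE gave 20, DESeq2 20, no filter 30, and 2 further fits added after seeing the data gave 18 (newer dispersions) and 20 (TMM before the filter). Same-numbered libraries 1 and 2 did not deviate together (correlation -0.02 over 360 miRs, the same for both numbers by construction), and no pairing was taken for the third libraries, which no label pairs. Members called stayed at 0 in all of these except no filter, which gave 1, miR-124-3p, the filter being what had left it out. Of 84 log2 fold changes of members under alternatives, 78 kept their direction and their side of the threshold and 6 changed sign: miR-9-5p at -0.015 and miR-129-5p at -0.033 with total counts, and miR-129-5p at -0.14 with the replicate block, -0.14 without it on the same libraries, -0.03 without RPL24 KD 1 and -0.16 without the unnumbered NC library. Leaving out 1 library gave miR-129-5p values from -0.16 to 0.21. The cause of the other changes was not tested. With at most 8 counts per library, miR-124-3p, miR-138-5p, miR-153-3p and miR-212-3p are limited by depth.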
